A study of Mus musculus with 8 samples.

Results

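Gm129, Bhlhe40 and Bhlhe41 encode auxiliary repressors of the circadian clock, and their transcripts were followed through 2 days of constant darkness in the mouse suprachiasmatic nucleus (SCN), the clock centre of the hypothalamus. The 3 genes were taken by symbol, 3 of 20741 genes in the sense gene table. Gm129 is the tables' name for Ciart, also called Chrono. With them came 18 of 176269 introns, 35 of 292239 exons, 22 of 229190 splice junctions and 3 of 15290 gene rows of the opposite strand.

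The samples were 8 libraries of polyadenylated RNA from SCN of C57/BL6 mice, a laboratory strain with no allele or agent named in the labels. All mice had been kept in a cycle of light and dark for 3 weeks and then in darkness, so every library comes from free-running animals. Collection was every 6 h, and each library pooled equal amounts of RNA of 3 mice. The subjective day is covered by CT4 and CT10, the subjective night by CT16 and CT22. Each circadian time (CT, hours on the animal's own day) is held by 2 libraries, replicate 1 from the first cycle (22 to 40 h) and replicate 2 from the second (46 to 64 h). No age or sex is used here. The SCN markers Vip and Avp were read in all libraries, Vip at 189 to 375 CPM (reads scaled to a common library size) and Avp at 12.8 to 54.3 CPM, and none of 11 SCN neuron markers was at 0 in any library.

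The clock turns on a feedback loop in which the activators CLOCK and BMAL1 bind E-boxes, short DNA motifs, and drive genes whose products later shut the activators down. PER and CRY proteins carry the main repression. CIART binds BMAL1 and lowers the activity of the pair. BHLHE40 (DEC1) and BHLHE41 (DEC2) are basic helix-loop-helix proteins that bind E-boxes themselves and repress there. Transcripts of both DEC genes have been described in the SCN, and Bhlhe40 is known there as a gene that light can induce.

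The region before each gene's start is shown first, because E-boxes are the sites through which all 3 genes are thought to be driven. Promoter windows were taken from RefSeq on GRCm38.p6, a later build than the mm9 of the count tables, and reach from 250 bases before to 50 after the start. They were found for Ciart and Bhlhe41. The 250 bases before each start are printed 5′ to 3′ on the gene's strand (minus for both), with each E-box of the form CACGTG in capitals.
Ciart, chr3:95882229-95882478: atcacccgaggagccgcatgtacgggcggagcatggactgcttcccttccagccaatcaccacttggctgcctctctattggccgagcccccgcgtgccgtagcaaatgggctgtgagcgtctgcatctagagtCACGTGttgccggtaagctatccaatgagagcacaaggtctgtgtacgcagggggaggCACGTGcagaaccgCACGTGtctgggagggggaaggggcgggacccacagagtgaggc
Bhlhe41, chr6:145865421-145865670: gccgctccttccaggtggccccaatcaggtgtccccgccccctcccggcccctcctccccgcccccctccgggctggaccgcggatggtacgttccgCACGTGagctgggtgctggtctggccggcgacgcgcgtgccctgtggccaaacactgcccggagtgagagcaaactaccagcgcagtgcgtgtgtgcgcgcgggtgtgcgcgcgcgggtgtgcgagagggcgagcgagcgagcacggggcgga

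The Ciart window held 3 E-boxes, with first bases at -116, -58 and -44 from the start, and the Bhlhe41 window held 1, at -153. The motif reads the same on both strands. Among 32851 promoter windows of this length, 7.15% held at least 1 CACGTG and 0.0883% held at least 3, which is 29 windows. The related motif CACGTT, searched on both strands and by its letters unable to overlap CACGTG, was in 4.68% of all windows and in neither of these. Of 10 other clock genes that CLOCK and BMAL1 drive (Per1, Per2, Per3, Cry1, Cry2, Nr1d1, Nr1d2, Dbp, Tef and Hlf), 9 had a window, and 3 of these held CACGTG, never more than 1 per window. These matches describe letters in short windows and are no evidence of binding.

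**Figure D1:**
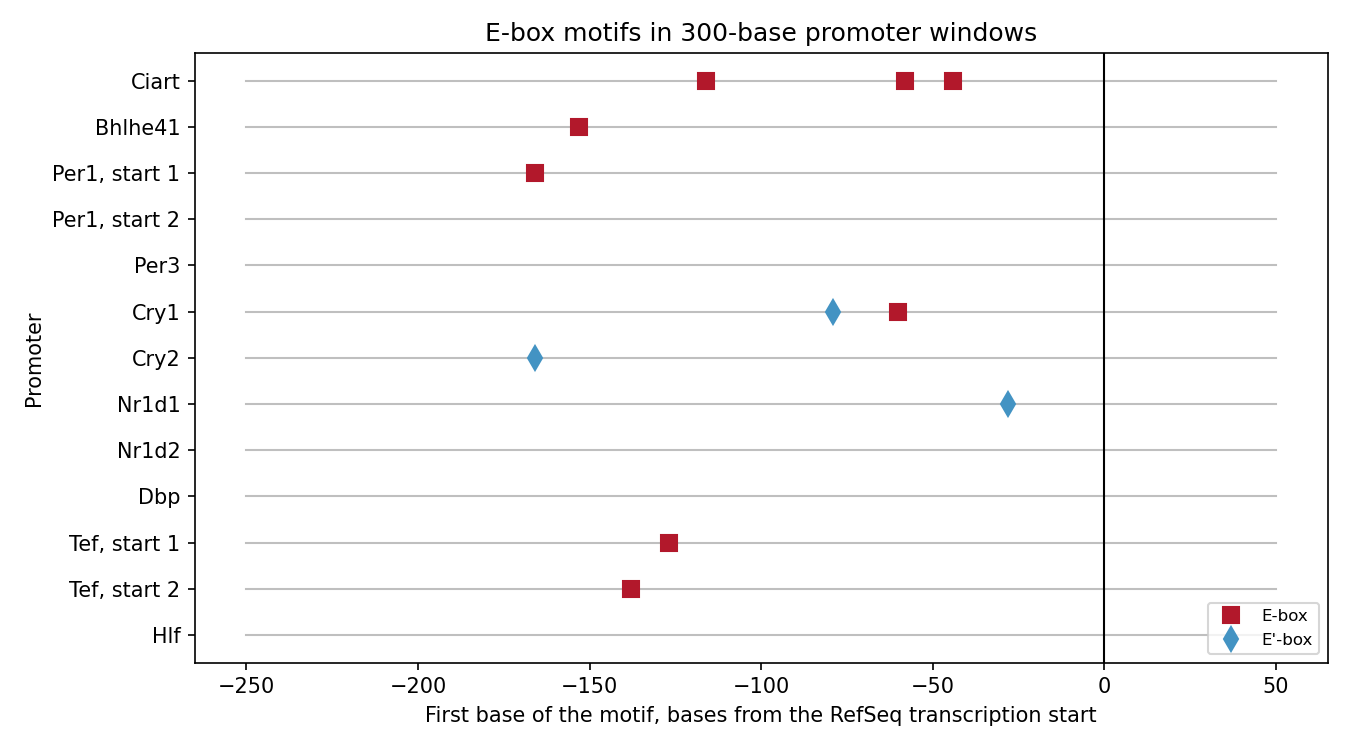
Position of CACGTG (E-box, squares) and CACGTT (E′-box, diamonds) in the promoter windows of Ciart, Bhlhe41 and the clock genes with a window. The horizontal axis gives bases from the RefSeq start and each row is 1 start. Ciart carries 3 squares, at -116, -58 and -44, while each other row carries at most 1.

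Gm129 (ENSMUSG00000038550, mm9 chromosome 3, 95682362-95686230) had a 24-h rhythm with its high point late in the subjective day. It was read at 13.1 and 14.9 CPM at CT4, at 21.1 and 20.8 at CT10, at 8.85 and 8.85 at CT16, and at 8.05 and 7.36 at CT22 (replicates 1 and 2). The 4 day libraries all lay above the 4 night libraries, and both CT10 libraries above both CT4 libraries. Bhlhe40 (ENSMUSG00000030103, chromosome 6, 108610587-108617163) was read at 45.7 and 51.8 CPM at CT4, 64.7 and 59.9 at CT10, 49.1 and 46.5 at CT16, and 47.5 and 52.3 at CT22. Both CT10 libraries were above the other 6, which mixed. Bhlhe41 (ENSMUSG00000030256, chromosome 6, 145806214-145814113) was read at 71.6 and 86.5 CPM at CT4, 93.3 and 85.3 at CT10, 68.4 and 79.2 at CT16, and 76.3 and 73.1 at CT22. Its day and night libraries overlapped.

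**Figure D2:**
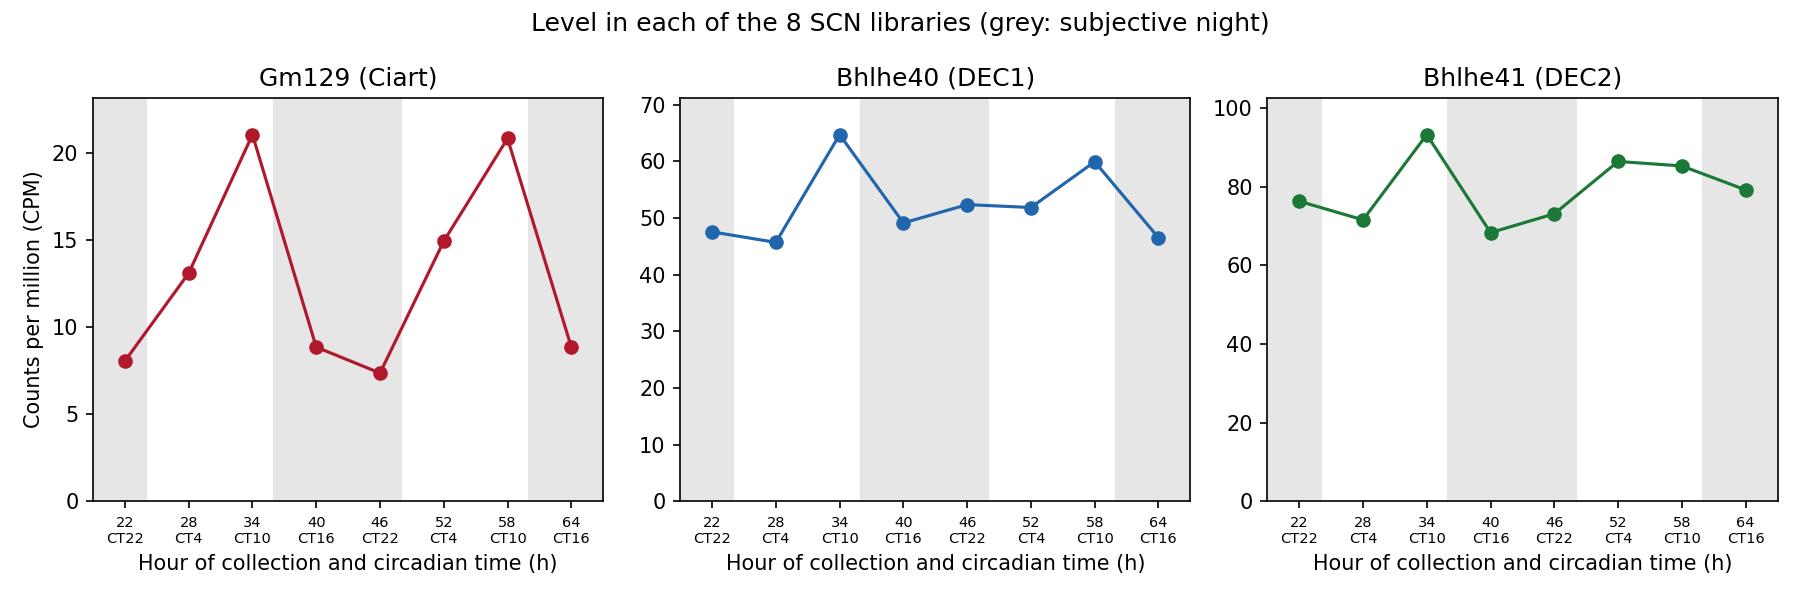
CPM of Gm129, Bhlhe40 and Bhlhe41 in each library against the hour of collection, with circadian time under it and the subjective night in grey. Every point is 1 pooled library, and each vertical axis starts at 0. Gm129 reaches 21.1 and 20.8 CPM at CT10 in the 2 cycles and falls under 9 CPM in every night library.

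Raw reads behind these values were 81 to 237 per library for Gm129, 509 to 728 for Bhlhe40 and 749 to 1050 for Bhlhe41. Per kilobase of annotated exon, the mean level over the 8 libraries was 5.35 ± 2.33 CPM (SD, n = 8) for Gm129, 15.4 ± 2.00 for Bhlhe40 and 11.6 ± 1.25 for Bhlhe41. The ranges of Bhlhe40 (13.5 to 19.1 CPM per kilobase) and Bhlhe41 (9.98 to 13.6) overlapped at their ends, and that of Gm129 (3.06 to 8.74) lay under both. The Gm129 length, 2408 bases, counts every annotated exon. It includes the 1127-base row 95685104-95686230, which spans introns of other transcripts. A shorter length would raise the Gm129 values, so their place under both DEC genes depends on the length used. In pooled RNA of a tissue piece, fewer cells that express a gene and less RNA per cell cannot be told apart.

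Fitted as a 24-h cosine of free phase in edgeR's quasi-likelihood model, Gm129 had a log2 peak-to-trough ratio of 1.60 ± 0.22 (SE), which is 3.03-fold, and a peak at CT8.39 ± 0.530 h (SE). The Benjamini-Hochberg adjusted p of edgeR was 0.0157, ninth in order of p (rank 9) among 15217 tested genes, of which 0.112% passed. By CT group it averaged 14.0 ± 1.30 CPM at CT4, 20.9 ± 0.155 at CT10, 8.85 ± 0.000555 at CT16 and 7.71 ± 0.491 at CT22 (SD, n = 2 each). The CT16 values rest on 97 and 99 reads, and an SD of 2 such libraries is no measure of precision. Bhlhe40 had a log2 ratio of 0.32 ± 0.15 with a fitted peak at CT9.67 ± 1.79 h and an adjusted p of 0.666 by edgeR. For Bhlhe41 the log2 ratio was 0.28 ± 0.14 with a fitted peak at CT8.61 ± 1.87 h and an adjusted p of 0.696 by edgeR. The median log2 ratio of all tested genes was 0.29, so the values of both DEC genes lay near the middle of all genes, with 45.4% of genes above Bhlhe40 and 53.1% above Bhlhe41. Without CT10 replicate 1 the adjusted p of Gm129 by edgeR was 0.117, without CT10 replicate 2 it was 0.137, and its log2 ratio was 1.53 in both. The fitted peaks of the 3 genes lay within the SEs of the DEC genes, and their order was not tested.

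In the authors' deposited table, a JTK test gave Gm129 an adjusted p of 0.00694 with a peak at 10 h and a q-value of 0.978. The same table gave Bhlhe40 0.575 and Bhlhe41 0.715, both with a peak at 10 h.

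By day against night (CT4 and CT10 over CT16 and CT22), Gm129 was 2.08-fold higher, a log2 difference of 1.06 ± 0.16 (SE) with an adjusted p of 0.00912 by edgeR. In that comparison 0.105% of genes passed, 0.0723% as higher and 0.0329% as lower by day. Its call was lost without CT10 replicate 1 (adjusted p = 0.0589 by edgeR), CT10 replicate 2 (0.0871) or CT16 replicate 2 (0.0627). Bhlhe40 was at a ratio of 1.13 (adjusted p = 0.746) and Bhlhe41 at 1.13 (adjusted p = 0.703), both by edgeR, and neither passed. Around dusk against around dawn (CT10 and CT16 over CT22 and CT4), Gm129 was at a ratio of 1.32 with an adjusted p of 0.576 by edgeR, where 0.0197% of genes passed. Bhlhe40 stood at 1.11 (adjusted p = 0.759) and Bhlhe41 at 1.06 (adjusted p = 0.858) on that axis.

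A 12-h term (CT4 and CT16 over CT10 and CT22) was added to look for a second daily swing, which at 6-h sampling is seen in 1 phase only. Bhlhe40 had a log2 value of -0.21 ± 0.09 (SE), which put CT10 and CT22 together above CT4 and CT16, with an adjusted p of 0.657 by edgeR. Its mean was 62.3 CPM at CT10, against 49.9 at CT22, 48.7 at CT4 and 47.8 at CT16. The CT22 libraries overlapped those of CT4 and CT16, so no second high at CT22 was seen. The log2 values were -0.19 for Gm129 and -0.10 for Bhlhe41 (adjusted p = 0.813 and 0.843). None of the 15217 genes passed by edgeR (0% called), 1137 had an unadjusted p under 0.05, and DESeq2 passed 8. The second cycle against the first gave ratios of 1.01 for Gm129, 1.02 for Bhlhe40 and 1.05 for Bhlhe41, with adjusted p of 0.999 each by edgeR. No gene passed that comparison by edgeR (0% called), and 543 had an unadjusted p under 0.05, while DESeq2 passed 0. Means over the 4 libraries of a cycle were 13.0 ± 6.17 CPM in the second and 12.8 ± 5.95 in the first for Gm129, 52.6 ± 5.52 and 51.7 ± 8.74 for Bhlhe40, and 81.0 ± 6.15 and 77.4 ± 11.1 for Bhlhe41 (SD, n = 4 each).

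Oligodendrocyte transcripts varied between libraries. All 7 markers used (Mbp, Mobp, Mag, Mog, Cnp, Cldn11 and Opalin) were read in every library, and their sum was 4531 to 9100 CPM at CT10 and CT16, against 2870 to 5988 CPM at CT22 and CT4. By day it was 2870 to 8967 CPM, against 4531 to 9100 CPM by night. The ranges overlapped on both axes, and the adjusted p of the markers at dusk against dawn was 0.395 to 0.847 by edgeR. All 7 markers were nonetheless higher around dusk, beside 51.4% of all genes. By day against night 4 of the 7 were higher, beside 48.0% of all genes. Opalin, of low level in the sum, was highest there at 1.65-fold (adjusted p = 0.302 by edgeR), with a fitted peak at CT7.93. All 7 markers also had an unadjusted p under 0.05 in the 24-h test of edgeR, beside 1308 of all 15217 genes, and 0 passed it. Other lists were also read on the dusk-dawn axis. Higher around dusk were 9 of 9 glucocorticoid-responsive genes, 6 of 7 microglia markers and 4 of 6 astrocyte markers. The same held for 2 of 11 immediate-early genes and 1 of 5 endothelial markers. None of these passed the 24-h test by edgeR, and their part in the values of the 3 genes was not tested. The part of the oligodendrocyte markers was tested only as a term in the fit. With the marker score as a term, the day-night log2 difference of Gm129 was 1.05 (adjusted p = 0.00586 by edgeR) and its 24-h ratio 1.53 (adjusted p = 0.0139). On the dusk-dawn axis the log2 difference became 0.26 for Gm129, 0.0084 for Bhlhe40 and -0.07 for Bhlhe41, none of them past the threshold by edgeR (adjusted p = 0.997 each). The fitted peak of Bhlhe41 then lay at CT5.55 and that of Bhlhe40 at CT7.19. Arcuate markers (Pomc, Agrp, Npy, Kiss1 and Cartpt), of a nucleus close to the SCN, summed to 92.6 CPM in CT10 replicate 1 and to 12.9 to 35.8 CPM in the other 7 libraries. Their part in the CT10 values was not tested. In CT10 replicate 1 Gm129 had 21.1 CPM, Bhlhe40 64.7 and Bhlhe41 93.3. In CT10 replicate 2, at 16.9 CPM of these markers, Gm129 had 20.8 CPM, Bhlhe40 59.9 and Bhlhe41 85.3. For Bhlhe41 this last value lay under that of CT4 replicate 2, 86.5 CPM.

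Ratios between the 3 genes within a library, which do not depend on scaling between libraries, were then compared. Gm129 reads over Bhlhe40 reads were 0.287 and 0.288 at CT4, 0.326 and 0.348 at CT10, 0.180 and 0.190 at CT16, and 0.169 and 0.141 at CT22. Every day library was above every night library. In the exact two-sided permutation test of 70 arrangements, the mean log2 ratio was -1.67 ± 0.13 by day and -2.54 ± 0.19 by night (SD, n = 4 each), a difference of 0.86 with p = 0.0286, the smallest this design allows, and 0.0857 after adjustment over the 6 ratio tests. Gm129 over Bhlhe41 gave 0.183 and 0.173 at CT4, 0.226 and 0.244 at CT10, 0.130 and 0.112 at CT16, and 0.106 and 0.101 at CT22. Here too the day and night libraries did not overlap, with a log2 difference of 0.86 (exact permutation p = 0.0286, adjusted 0.0857). Bhlhe41 over Bhlhe40 lay between 1.39 and 1.70 in all libraries, with a day-night log2 difference of 0.0034 (exact permutation p = 0.971, adjusted 0.971) around SDs of 0.11 by day and 0.15 by night (n = 4 each). The 3 dusk-dawn differences of these ratios were 0.24, 0.31 and -0.07 (adjusted exact permutation p = 0.583 each). With 6 tests adjusted together, no ratio test passed 0.05, and none could have. A ratio can reach the smallest p on a single axis only, and the day-night tests of the Gm129 ratios already did.

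**Figure D3:**
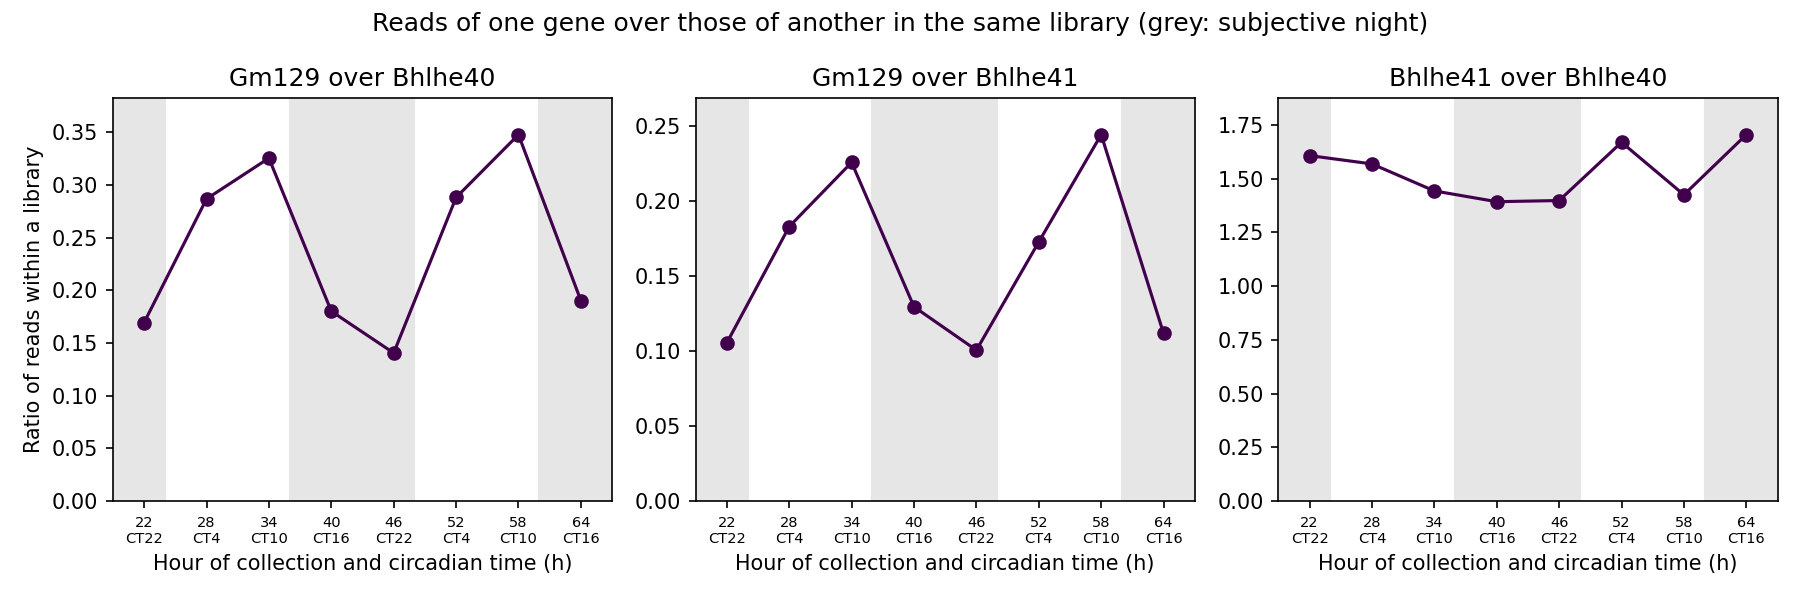
Reads of 1 gene over reads of another in the same library, against the hour of collection, with the subjective night in grey and axes that start at 0. Both Gm129 ratios are higher in the 4 day libraries than in the 4 night libraries, while Bhlhe41 over Bhlhe40 stays between 1.39 and 1.70.

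Across the 8 libraries log2 CPM of Gm129 and Bhlhe40 had a Pearson r of 0.74, Gm129 and Bhlhe41 of 0.76, and Bhlhe40 and Bhlhe41 of 0.76. These are descriptions over libraries that share depth scaling and dissection. Among 11901 genes with a mean of at least 5 CPM, the 5 with the pattern most like Gm129 were Dbp (r = 0.96), Bdh1 (0.96), Per2 (0.94), Vangl1 (0.94) and Gltpd1 (0.92). Dbp, a PAR bZIP transcription factor and a textbook E-box target, had a log2 peak-to-trough ratio of 1.64 and a fitted peak at CT7.46. Per2, a core repressor of the loop, had 1.27 and CT8.80. Bdh1, a ketone body enzyme of mitochondria, had a log2 ratio of 0.34 with an adjusted p of 0.595 by edgeR, so a like shape did not mean a like size. The genes most like Bhlhe40 were Haus7 (0.95), Gm3452 (0.95), Unc93b1 (0.94), Mapk3 (0.94) and Sumo3 (0.93). For Bhlhe41 they were Diablo (0.97), S100a10 (0.97), Leprot (0.96), Rcbtb1 (0.94) and Xpnpep1 (0.92). The adjusted p of these 10 genes in the 24-h test of edgeR ran from 0.465 for Mapk3, the kinase ERK1, to 0.840 for Sumo3. All genes named as most alike were picked as the highest of 11901 correlations over 8 libraries, so a high r is built into the choice. Shared regulation was not tested.

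Of the 10 other E-box targets, 4 passed the 24-h test by edgeR, Per1, Per2, Nr1d1 and Dbp, all higher by day, beside 0.112% of all genes. DESeq2, which passed 98 of all 15217 genes, passed Per3 and Tef besides. All 10 had values above 1 for day over night, beside 48.0% of all genes, the lowest being Cry1 at 1.02-fold (adjusted p = 0.966 by edgeR), and the median log2 peak-to-trough ratio of the list was 0.55, beside 0.29 over all genes. Gm129 and Dbp had the highest fitted ratios of the 24 members and listed genes, 1.60 ± 0.22 and 1.64 ± 0.16 (SE). Per1, a core repressor, had a ratio of 1.29 ± 0.15 (log2) and peaked at CT6.79 (adjusted p = 0.00323 by edgeR). Nr1d1, which encodes the repressor REV-ERBα, had 1.08 ± 0.14 and peaked at CT4.89 (adjusted p = 0.00834). Tef, Per3 and Cry1 had log2 ratios of 0.52, 0.59 and 0.44 and did not pass (adjusted p = 0.214, 0.255 and 0.516).

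The activators and their ROR partners gave 0 of 5 past the 24-h threshold by edgeR, 4 with an unadjusted p under 0.05 and 2 by DESeq2 (Rora and Rorb). Rora, a receptor that activates Bmal1, had a ratio of 1.05 (log2) and peaked at CT4.83 (adjusted p = 0.0860 by edgeR). Rorb, its relative in the SCN, had 0.76 and peaked at CT1.46 (adjusted p = 0.203). Arntl, the gene of BMAL1, had 0.66 and peaked at CT21.4 (adjusted p = 0.319). The HES and HEY family, bHLH repressors related to the DEC proteins by structure, gave 0 of 6 by edgeR, none with an unadjusted p under 0.05 and none by DESeq2. The lowest p were those of Heyl, with a log2 ratio of 0.39 (adjusted p = 0.688), Hes5, with 0.47 (0.773), and Hes6, with 0.36 (0.816). Its median log2 ratio was 0.31, beside 0.32 for Bhlhe40 and 0.28 for Bhlhe41.

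**Figure D4:**
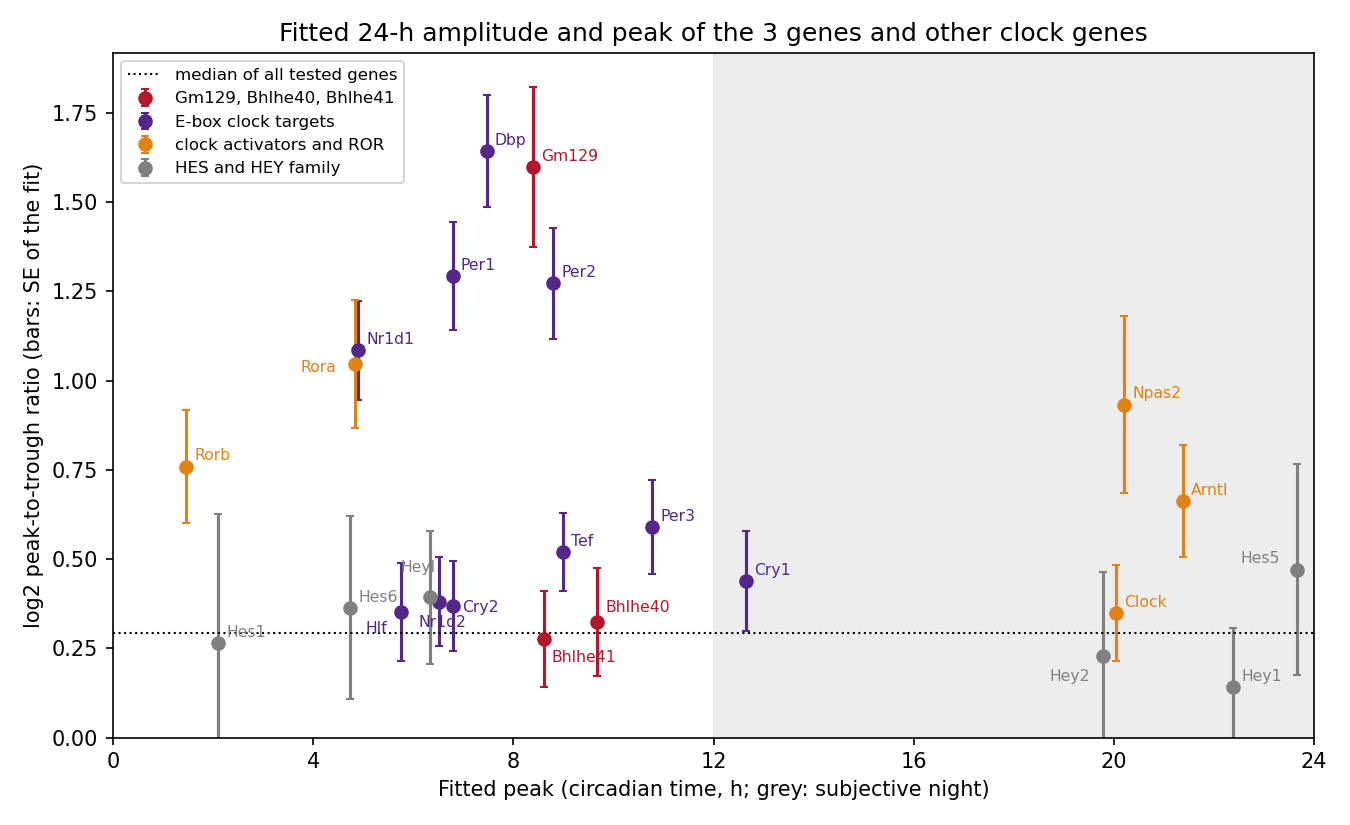
Fitted log2 peak-to-trough ratio (vertical axis, bars are SEs) against fitted peak in circadian hours for Gm129, Bhlhe40, Bhlhe41 and the 3 lists of clock and related genes, with the subjective night in grey and the median of all tested genes dotted. Gm129 at 1.60 stands beside Dbp at 1.64, and both DEC genes lie near the dotted line at 0.29.

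Intron reads, which can come from RNA not yet spliced or from exons of other transcripts, were higher by day for Gm129, as its gene reads were. Of its 537 intron reads, 459 lay in introns that overlap an exon row. Summed over introns that do not overlap within the gene, Gm129 had 90 and 72 reads at CT4, 93 and 109 at CT10, 52 and 50 at CT16, and 32 and 39 at CT22. Day and night libraries did not overlap. Their fitted log2 ratio of 1.62 ± 0.30 (SE), peaking at CT8.38, had an adjusted p of 0.0344 by edgeR, among 13878 genes of which 0.259% passed. The intron call was kept in 1 of 8 fits that left out a library, with adjusted p from 0.0417 to 0.277 by edgeR. Of all listed Gm129 intron rows, the best-read were 95684982-95686077 with 320 reads by day and 154 by night, 95683073-95684331 with 266 and 132, and 95685203-95686077 with 237 and 123. The first and last of these overlap each other and were not part of the sum or the fit. All of them overlap exon rows. Over introns that overlap no exon of the tables, a set chosen after seeing the data, reads were 37 and 26 at CT4, 42 and 53 at CT10, 21 and 17 at CT16, and 14 and 15 at CT22, the log2 ratio was 1.85 and the adjusted p 0.161.

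Bhlhe40 introns had 36 and 63 reads at CT4, 38 and 25 at CT10, 27 and 8 at CT16, and 32 and 20 at CT22. The highest and lowest libraries, 63 and 8 reads, were both of the second cycle, and day and night overlapped. Its fitted log2 ratio was 1.51 ± 0.50 (SE), peaking at CT4.66 ± 1.24 h, with an adjusted p of 0.352 by edgeR. Most of its intron reads, 213 over all libraries, lay in the last intron (chromosome 6, 108612639-108614472). Bhlhe41 introns had 24 and 50 reads at CT4, 44 and 57 at CT10, 44 and 57 at CT16, and 36 and 39 at CT22. The fitted log2 ratio was 0.61 ± 0.38 (SE), peaking at CT13.2 ± 2.36 h, with an adjusted p of 0.745 by edgeR. Its 3 rows with enough reads were 145812763-145813095 with 78 reads by day and 72 by night, 145812259-145812650 with 53 and 76, and 145812388-145812650, which lies within the one before and was not in the sum, with 38 and 58. The order of the first of these turned without CT22 replicate 1 (means of 19.5 by day and 21.7 by night) or CT4 replicate 2 (16.3 and 18).

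Intron reads came to 35.6% to 61.6% of gene reads for Gm129, 1.54% to 10.9% for Bhlhe40 and 3.01% to 6.43% for Bhlhe41. The gene and intron tables each have nearly equal totals in all libraries, so these shares compare libraries and genes in relative terms, and for Gm129 they include introns of one transcript that are exons of another. By day against night, the log2 intron share of Gm129 was -1.07 ± 0.28 by day and -1.07 ± 0.25 by night (SD, n = 4 each), a difference of 0.0025 (exact permutation p = 1, adjusted 1). For Bhlhe40 it was -3.93 ± 0.63 by day and -4.65 ± 0.77 by night, a difference of 0.72 (exact permutation p = 0.20, adjusted 0.40). Around dusk against dawn the Bhlhe40 share differed by -0.79 (exact permutation p = 0.171, adjusted 0.40). For Bhlhe41 the differences were -0.24 by day and 0.37 at dusk (adjusted exact permutation p = 0.557 and 0.40). No difference in intron share passed. The smallest p this exact permutation test allows is 0.0286, and after adjustment differences in a single gene could not pass even at that floor. The exact permutation p of Bhlhe40, 0.20 and 0.171, lay above it. The test therefore cannot decide whether the fitted peaks of Bhlhe40 intron reads (CT4.66) and gene reads (CT9.67) differ.

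**Figure D5:**
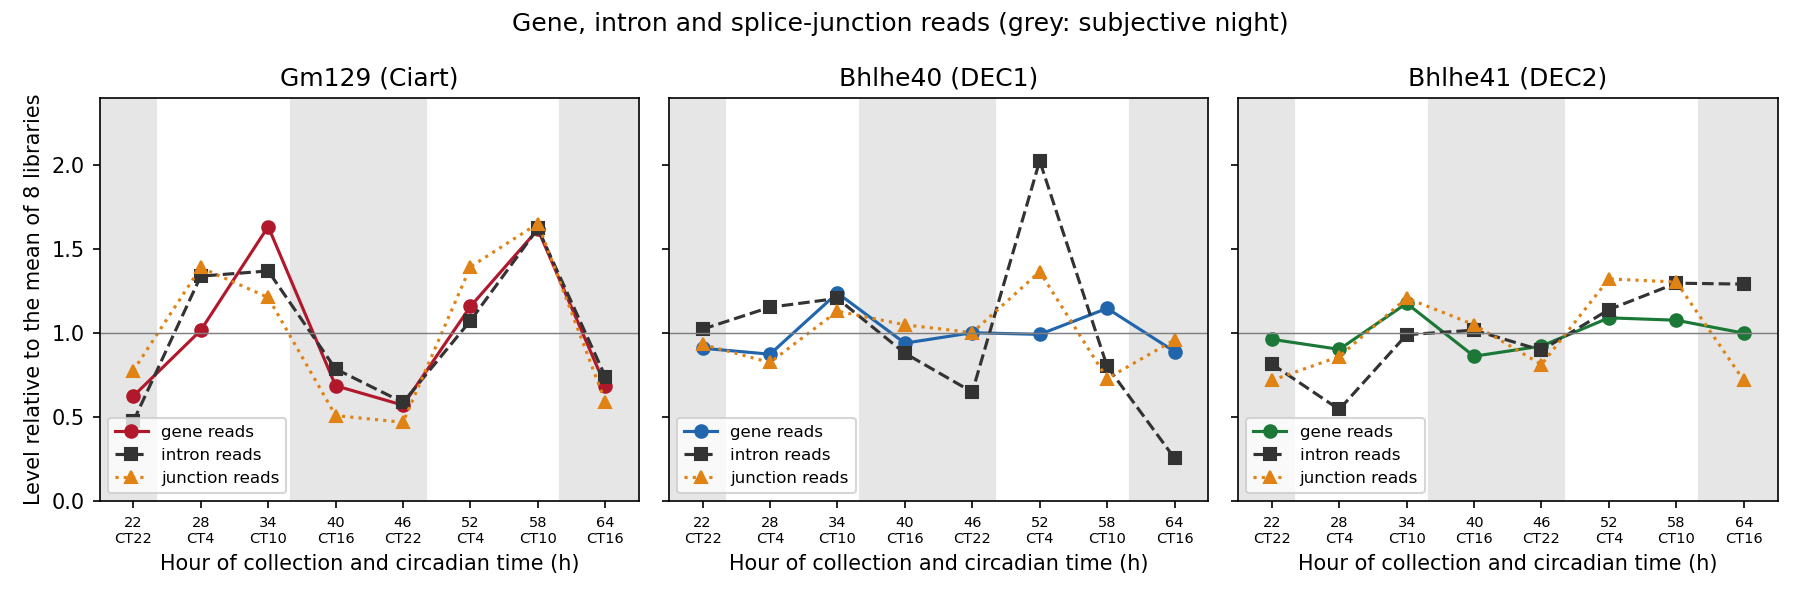
Gene reads (solid), intron reads (dashed) and reads over the 4 best-read splice junctions (dotted) of each gene, scaled by library size and divided by their own mean over the 8 libraries, against the hour of collection. For Gm129 all 3 lines are low in the night libraries, though at CT10 of the first cycle (34 h) the gene line rises above CT4 while the junction line lies lower, at 66 reads against 75. The intron line of Bhlhe40, which rests on 8 to 63 reads, swings widely at 52 and 64 h.

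Spliced reads were followed over 12 junctions with enough reads, 4 per gene, of 22 listed. Those of Gm129 summed to 75 and 75 reads at CT4, 66 and 89 at CT10, 27 and 32 at CT16, and 42 and 25 at CT22, 305 by day and 126 by night, and day and night libraries did not overlap. Bhlhe41 junctions summed to 574 reads by day and 400 by night, and Bhlhe40 junctions to 295 by day and 285 by night. None of the 12 passed the 24-h test by edgeR, in which 0.0179% of 78212 junctions passed. Their adjusted p was 0.801 or more by edgeR, 2 had an unadjusted p under 0.05, both of Gm129, and DESeq2 was not run on junctions. The lowest was that of the Gm129 junction 95684637-95684905, with 16 and 21 reads at CT4, 17 and 36 at CT10, 3 and 9 at CT16, and 9 and 5 at CT22 (adjusted p = 0.801 by edgeR). The most-read Gm129 junction, 95684982-95685103, had 93 reads by day and 38 by night, and the next, 95684444-95684557, had 75 and 48. The best-read junctions of Bhlhe41 had 201 reads by day and 137 by night (145812763-145813095), 154 and 105 (145813204-145813516), and 129 and 81 (145813581-145813725). For Bhlhe40 they had 122 and 88 (108612639-108614472), 88 and 109 (108611607-108612514), and 48 and 50 (108610987-108611154). In the first of these, CT4 replicate 2 had 57 reads and the other 7 libraries had 17 to 25, and without it the mean was 21.7 reads by day and 22 by night. In the last, the mean without CT22 replicate 1 was 12 by day and 10 by night, and without CT10 replicate 2 it was 13.3 by day and 12.5 by night.

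Exon rows were compared by day and night along each gene. All 13 Gm129 exons with enough reads, of 19 listed, had more reads by day than by night, at 1.19 to 3.39 times (median 2.4). Many of these rows overlap and share reads, so they are not separate measurements. The last exon (95682362-95683072, minus strand) had 64 and 62 reads at CT4, 99 and 92 at CT10, 32 and 44 at CT16, and 38 and 39 at CT22. A second row starting 2 bases away (95682364-95683072) had the same 470 reads, and the longest row at the 5′ end (95685104-95686230) had 469. The lowest day-night ratio, 1.19, was that of exon 95683406-95683708, which had 37 reads by day and 31 by night and lies within an intron of the other transcripts. Without CT10 replicate 1 its mean was 7.67 by day and 7.75 by night, and without CT22 replicate 2 it was 9.25 by day and 9.33 by night.

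Bhlhe41 had more reads by day in 7 of 9 exons with enough reads, at 0.832 to 1.45 times. Its last exon (145806214-145812258, minus strand) held 73.4% of the reads of exons that do not overlap, with 3044 reads by day and 2676 by night, a ratio of 1.14. The 4 shorter exons before it had ratios of 1.31 to 1.45. The highest of the 9 was exon 145813096-145813203, with 89 and 99 reads at CT4, 104 and 114 at CT10, 84 and 70 at CT16, and 56 and 70 at CT22. In the authors' deposited table the JTK adjusted p of that exon was 0.00427 with a q-value of 1. The shorter row within the last exon (145811157-145812258) had 295 reads by day and 341 by night. CT22 replicate 1 alone held 136 of these, against 55 to 92 in the other 7 libraries, and without it the mean was 73.8 reads by day and 68.3 by night. The other row with more reads by night (145811989-145812387) likewise had more by day without that library, with means of 23.5 by day and 17.7 by night. Bhlhe40 had more reads by day in 4 of 7 exons, at 0.835 to 1.53 times. Its last exon (108614473-108617163, plus strand) held 78.5% of the reads of exons that do not overlap, 2228 by day and 1844 by night. The next best-read exons, 108612515-108612638 and 108611499-108611606, had 227 reads by day against 217 by night and 139 by day against 155 by night. The order of the first of these turned without CT22 replicate 1 (means of 56.8 by day and 60.7 by night) or CT4 replicate 2 (49.3 and 54.3). It turned in 2 further Bhlhe40 rows, 108611155-108611224 without CT16 replicate 2 (20.8 and 21.3) and 108610841-108610986 without CT22 replicate 1 (13 and 11).

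Relative use of the exons within a gene was tested with diffSpliceDGE of edgeR, in which 0.00431% of 23214 tests (each gene on each axis) passed. The adjusted p was 1 for all 3 genes on both the day-night and the dusk-dawn axis, and the lowest unadjusted p of the 3 genes was 0.615, for Gm129 by day against night. A difference between the last exon of Bhlhe41 and its shorter exons was therefore not shown beyond the spread between libraries.

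On the opposite strand the 3 genes were read 0 to 8 times per library and none reached the minimum for a test. Bhlhe41 had 33 such reads in all beside 7052 sense reads, Gm129 had 29 beside 1148, and Bhlhe40 had 11 beside 4645. Totals were nearly equal between libraries within each strand's table, so these ratios are relative as well. Among the 3693 opposite-strand genes tested, 0% passed by edgeR and 128 had an unadjusted p under 0.05. DESeq2 was not run on that strand.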

How the data were processed

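STAR 2.3.0e and the mouse build mm9 are named in the submitters' processing notes. Deposited were counts of reads, in whole numbers, for genes on both strands, introns, exons and junctions. How reads were counted, and with which strand setting, is not given in the sources. Column totals were 11123610 to 11131890 for sense genes, 149603 to 149800 for the opposite strand, 4196931 to 4199146 for introns, 25232810 to 25232813 for exons and 3196136 to 3437120 for junctions, so depth had been made nearly equal before deposit in every one of these tables except that of junctions. The authors' tables also hold JTK adjusted p-values and q-values and a JTK peak time, per the file headers. Per the labels' protocols, a strand-keeping polyA kit was used. The labels put the start of collection at CT18, but the title of the earliest library gives CT22.

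Libraries 24 h apart were taken as 2 replicates of a circadian time. The labels state no replicates, the numbering is own and pairs nothing, and p-values measure spread between pooled libraries. The count test was edgeR 4.0.16 (quasi-likelihood, TMM scaling, at least 10 reads in at least 2 libraries, Benjamini-Hochberg threshold 0.05, R 4.3.3) over the whole table. The model had a day-night and a dusk-dawn term, jointly a 24-h cosine, and separate fits added a 12-h or a cycle term. CPM used effective library sizes, and log2 CPM for correlations a prior count of 2. The coefficient of biological variation was 0.143 for genes, 0.189 for introns, 0.346 for junctions and 0.431 for the opposite strand. Introns, junctions and opposite-strand genes used the sense library sizes. Intron reads were summed over introns that do not overlap within a gene. Within-library ratios and intron shares (prior count 2) were compared by exact two-sided permutation in scipy 1.17.1. Alternatives were DESeq2 1.42.0, other scalings, filters and terms, and each library left out. Fits were tested on simulated data.

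The genes and lists were chosen with earlier results of these data known. Named were all 3 genes, every called gene of a list with up to 3 more of lowest p, the 5 genes of most like pattern per gene, and the 3 best-read introns, exons and junctions of each gene, while further exons and junctions were named after their values were seen. RefSeq held all 3 genes by symbol, and promoter windows of 2. The tables' coordinates are mm9 and were not converted. Per-sample columns without a sample numbered 0. One gene of the planned oligodendrocyte list is not reported here and was left out of its sum and score. The exon and intron tables of the opposite strand were not used here.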

Additional observations from a re-analysis of the deposited data

Results flagged for a closer look

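In 2 exons of Bhlhe40 the dusk libraries lay wholly on one side of the dawn libraries in one cycle and wholly on the other side in the other, a difference that was not tested. In exon 108612515-108612638 of mm9 chromosome 6, dusk minus dawn was -21.5 reads per library in the second cycle and 20.5 in the first. In exon 108610587-108610986, the first of the gene, it was 9 reads in the second cycle and -13 in the first. Both rows hold few reads (18 to 79 per library), and the order of these exons was compared on both axes along with all other rows of the 3 genes that had at least 10 reads in at least 2 libraries. No gene-level value, intron share or ratio between the 3 genes turned over between the cycles in this way. Groups of 2 libraries are too small for a search for single outlying libraries.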

How the results depend on the processing

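The 24-h and day-night calls of Gm129 were kept under DESeq2, RLE scaling, no scaling, no filter, the oligodendrocyte term, the cycle term and the added 12-h term. With 1 library left out its 24-h log2 ratio ran from 1.53 to 1.72 and its day-night difference from 1.02 to 1.13, and 6 and 5 of 8 fits kept the call. Its intron ratio ran from 1.49 to 1.75, and over introns overlapping no exon it was 1.85 with the call lost. Bhlhe40 and Bhlhe41 passed under none of these settings. With the oligodendrocyte term some signs turned: Bhlhe41 to -0.0702 at dusk against dawn and to 0.0944 in the 12-h term, and the second against the first cycle to -0.0632 for Gm129, -0.0458 for Bhlhe40 and -0.0031 for Bhlhe41. Leaving out a library moved the cycle difference over -0.0860 to 0.0868 for Gm129, -0.0625 to 0.109 for Bhlhe40 and -0.0101 to 0.135 for Bhlhe41, the day-night log2 ratio of Bhlhe41 over Bhlhe40 over -0.0405 to 0.0584, and the intron share of Gm129 over -0.125 to 0.0899 by day and -0.0977 to 0.152 at dusk, all around values near 0. With 7 libraries the permutation tests cannot go below p = 0.0571, so they say nothing of stability. DESeq2 gave no adjusted p for Bhlhe40 and Bhlhe41 introns. Counts of called features moved more. The 24-h count of genes was 98 by DESeq2, 362 without the filter, 27 with the 12-h term and 7 to 43 with a library left out. The day-night count was 56, 137 and 28 in the same settings, 37 with the oligodendrocyte term and 4 to 28 with a library left out. The dusk-dawn count was 34 by DESeq2, 239 without the filter, 6 with the cycle term and 3 to 60. The 12-h count was 8, 169 and 0 to 33, and the cycle count 2 without the filter, 1 with the oligodendrocyte term and 0 to 2. Intron counts were 88 by DESeq2, 201 without the filter, 18 over introns overlapping no exon and 2 to 51. Junction counts were 7 with own library sizes, 238 without the filter and 0 to 62, opposite-strand counts 1, 3 and 0 to 1, and exon usage 3 with at least 50 reads, 4 with the most-read exon of each overlap (added after seeing the data) and 0 to 49. The causes were not tested. The labels give no replicate numbers that pair samples. The cycle term acts as a block by cycle, and with it the adjusted p of Gm129 by edgeR was 0.0231 over 24 h and 0.0159 by day against night. The main limits are 2 pooled libraries per time, sampling every 6 h, and intron and junction rows of few reads.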
